A study of Mus musculus with 3 samples.

Results

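The 10 genes described here are immediate early genes, whose transcription rises within minutes of a stimulus without new protein synthesis. They are Fos (ENSMUSG00000021250), Fosb (ENSMUSG00000003545), Jun (ENSMUSG00000052684), Junb (ENSMUSG00000052837), Jund (ENSMUSG00000071076), Egr1 (ENSMUSG00000038418), Egr2 (ENSMUSG00000037868), Ier2 (ENSMUSG00000053560), Atf3 (ENSMUSG00000026628) and Nr4a1 (ENSMUSG00000023034), and they were chosen by symbol as 10 of the 33696 genes in the matrices. The study sequenced single cells of mouse dorsal skin in 3 libraries. Cont came from mice given vehicle, CIA from mice with a model of chemotherapy-induced alopecia, and CIA+VFX from model mice given venlafaxine, an antidepressant that blocks the reuptake of serotonin and noradrenaline. All mice were 9-week-old C57BL/6 females, and in all groups the skin taken was the area depilated with wax strips. Skin of several mice was pooled before digestion, and the number pooled, the drug that induced the model, its dose and day, and the dose of venlafaxine are not given in the sources used here. Each group is 1 library, so no difference between groups has a replicate check and no p-value is given. The intervals below are 95% intervals that cover counting error only.

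The Fos and Jun proteins are leucine-zipper transcription factors that pair into the dimer AP-1. Egr1 and Egr2 are zinc-finger factors that bind GC-rich sites, Atf3 is a stress-induced factor of the ATF and CREB family, Nr4a1 is an orphan nuclear receptor, and Ier2 is a small nuclear protein. Growth factors, wounding and stress reach these genes through MAP kinases, serum response factor with its ternary complex partners, and CREB, and in skin AP-1 takes part in keratinocyte differentiation and wound repair. The same genes are known to be induced while tissue is cut and digested at warm temperature. These skins were minced and digested with collagenase D, filtered, freed of red cells by lysis and of debris on Percoll, and the protocol names no inhibitor of transcription, so a level below is that of a cell after this procedure. Heat shock genes, which the same procedure is known to induce, are given beside the members as sums per class, and their part in any difference was not tested.

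The libraries held 14529, 17675 and 18987 barcodes for Cont, CIA and CIA+VFX, of which 11904, 15401 and 15372 were kept as cells. The median kept cell had 6863.5, 5076 and 5485 UMIs (unique molecular identifiers, 1 per captured transcript) and 2.10%, 1.36% and 2.21% mitochondrial UMIs. Between 75 and 110 barcodes were shared by any pair of libraries. Cells were placed in classes by markers that hold none of the 10 genes. Of the kept cells 34420 (80.7%) passed a gate, and 14 classes had at least 50 cells in every library. Each class is named for its markers, so a name such as fibroblast means cells like that type by those markers. In each of the 14 no marker of another class was among the top 10 genes. The pericyte and vascular smooth muscle class, shortened to pericytes in places, had Myh11, a smooth muscle gene, first among its top 10. UMIs were summed per class and library and divided by the class's total UMIs to give the usual CPM scale.

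The promoters are shown first for the members whose 250 bases before the annotated start held a match to a searched motif and that the results below turn on. They come from RefSeq on GRCm38.p6, whereas the submitters' processing notes name GRCm39 for the counts. Windows for 8 of the 10 members were matched, with 12 starts in all, and Egr1 and Ier2 had no matched window. Capitals mark matches on either strand to the CArG box (bound by serum response factor), the EGR motif GCGNGGGCG, or TGACG, the core bound by CREB and ATF proteins, which was added after the sequences had been seen. The windows are Fos at chr12:85473640-85473889 on the plus strand, Fosb at chr7:19310046-19310295 on the minus strand, Egr2 at chr10:67537619-67537868 on the plus strand and Nr4a1 at chr15:101266596-101266845 on the plus strand.
Fos: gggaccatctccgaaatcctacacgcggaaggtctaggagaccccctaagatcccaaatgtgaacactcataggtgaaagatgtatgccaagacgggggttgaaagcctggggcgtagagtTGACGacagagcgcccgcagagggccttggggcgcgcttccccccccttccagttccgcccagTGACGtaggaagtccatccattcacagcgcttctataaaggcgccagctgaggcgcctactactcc
Fosb: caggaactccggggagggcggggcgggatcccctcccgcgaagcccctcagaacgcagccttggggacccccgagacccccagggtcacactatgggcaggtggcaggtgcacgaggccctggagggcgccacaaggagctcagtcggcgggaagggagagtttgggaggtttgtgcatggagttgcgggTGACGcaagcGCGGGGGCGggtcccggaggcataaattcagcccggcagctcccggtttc
Egr2: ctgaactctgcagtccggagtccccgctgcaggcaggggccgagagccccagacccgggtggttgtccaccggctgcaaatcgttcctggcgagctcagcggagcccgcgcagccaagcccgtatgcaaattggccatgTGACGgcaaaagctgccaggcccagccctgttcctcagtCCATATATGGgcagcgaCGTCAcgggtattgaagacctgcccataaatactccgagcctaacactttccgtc
Nr4a1: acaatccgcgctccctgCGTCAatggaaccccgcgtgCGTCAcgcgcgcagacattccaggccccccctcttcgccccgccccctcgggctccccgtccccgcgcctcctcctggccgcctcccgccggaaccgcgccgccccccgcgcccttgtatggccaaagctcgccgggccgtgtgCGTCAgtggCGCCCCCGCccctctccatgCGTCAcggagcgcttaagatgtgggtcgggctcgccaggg
The CArG box was found before 4 of the 5 annotated starts of Egr2, and 3 of these windows overlap and share 1 box, so there are 2 distinct boxes. No other matched member had one in its 250 bases, and 1.47% of all 32851 windows did. Sequence further upstream was not searched. In the printed Egr2 window it ended 62 bases before the start, between TGACG matches at 106 and 50 bases. The EGR motif was found in Fosb, 41 bases before its start, and in Nr4a1, 51 bases before its start, against 4.70% of all windows. TGACG was found in 6 of the 8 genes (Atf3, Egr2, Fos, Fosb, Junb and Nr4a1), with 4 matches in Nr4a1 and 2 in Fos. By window it was before 8 of the 12 starts, 3 of them overlapping windows of Egr2, against 17.8% of all windows. The full CREB site TGACGTCA was in 1.55% of windows and the AP-1 site TGANTCA in 6.75%, and neither was in a matched member. A match is a description of these letters and not a bound site.

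Over all kept cells the members differed little between libraries. Fos, the founding member of AP-1, had 2195 CPM in Cont, 2251 in CIA and 1993 in CIA+VFX. Jun, its usual partner, had 1248, 1270 and 1297 CPM. Junb, a Jun relative, had 949, 1216 and 916 CPM and was highest in CIA. Nr4a1 was also highest in CIA, at 251, 343 and 260 CPM. Egr1 (957, 820 and 859 CPM), Egr2 (30.4, 23.0 and 27.9), Fosb (818, 721 and 647) and Atf3 (1070, 898 and 1004) were highest in Cont, and Ier2 stayed between 188 and 203 CPM. The 10 genes together were 8985, 9103 and 8376 CPM, or 0.899%, 0.910% and 0.838% of all UMIs.

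Levels differed far more between classes than between libraries, as the map of levels by class and library shows. The summed level of the 10 genes was highest in fibroblasts, at 17937 CPM in Cont, 14406 in CIA and 12693 in CIA+VFX. Lymphatic endothelial cells followed with 15102, 13931 and 14310 CPM and basal and outer root sheath keratinocytes with 14002, 13156 and 11763. These 3 classes overlapped over the libraries, so they have no firm order among themselves. Suprabasal keratinocytes (15098, 7492 and 6734 CPM) overlapped them through the Cont library alone. Pericytes and vascular smooth muscle (10779, 12484 and 10044) overlapped basal and outer root sheath keratinocytes. The lowest sums were in dendritic and Langerhans cells, with 3239, 3740 and 3493 CPM, below inner root sheath cells at 3769, 4418 and 4717 with no overlap.

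**Figure D1:**
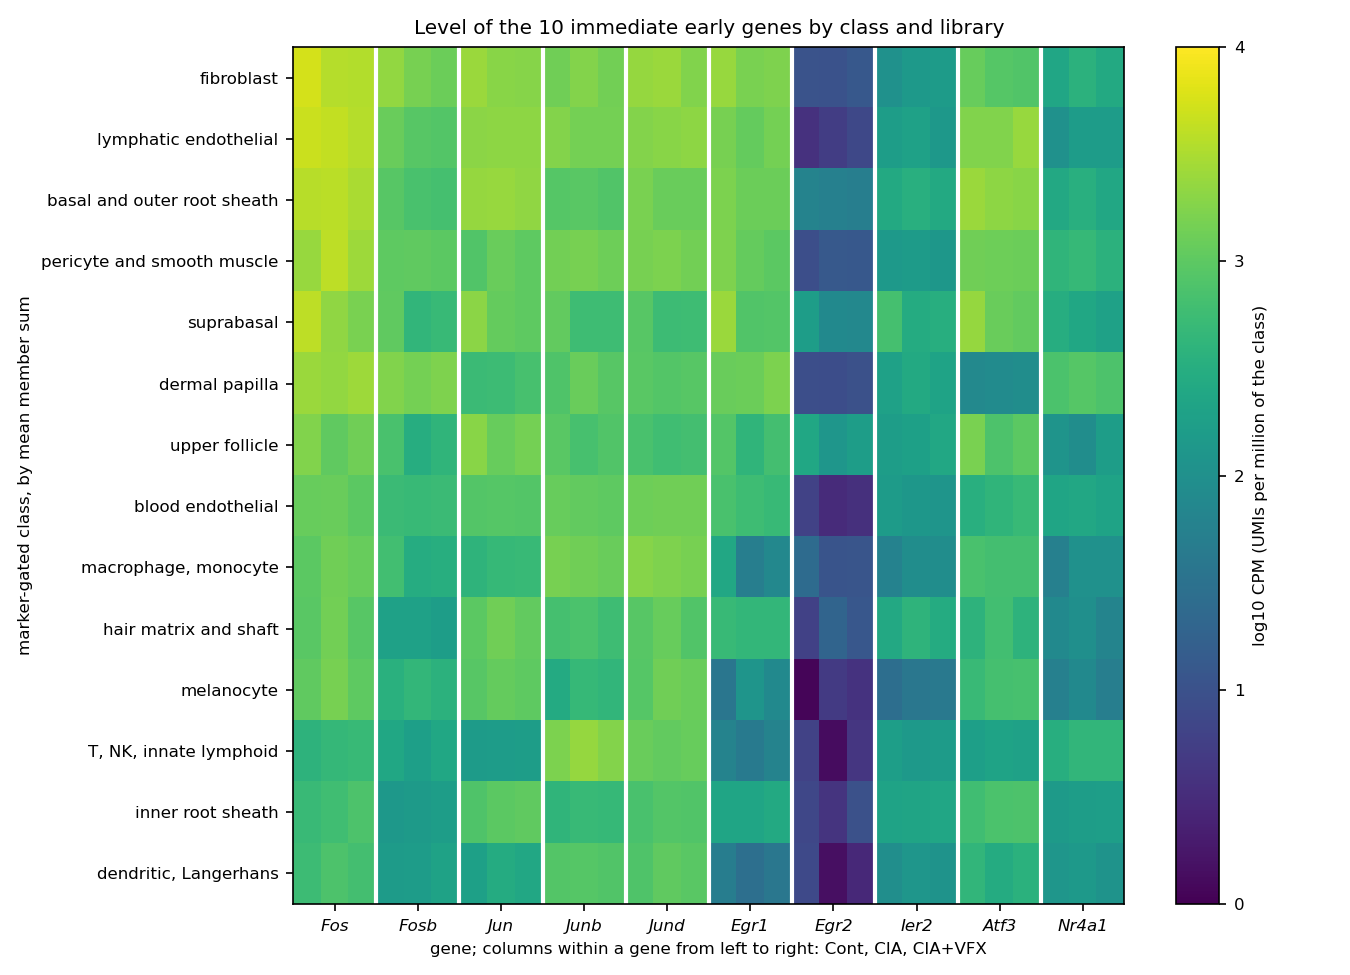
Map of the level of each gene (columns, in groups of 3 for Cont, CIA and CIA+VFX) in each of 14 classes (rows, ordered by the mean member sum); colour is log10 CPM of the class's summed UMIs. Fibroblasts and lymphatic endothelial cells are bright for Fos, Egr2 is brightest in the upper follicle, suprabasal and basal keratinocyte rows, and Nr4a1 is brightest in dermal papilla while Atf3 is darkest there.

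Each gene had its own order of classes. Fos had its highest means over libraries in fibroblasts (5524, 3646 and 3437 CPM in Cont, CIA and CIA+VFX) and lymphatic endothelial cells (4721, 4241 and 3639). These overlapped each other, basal and outer root sheath keratinocytes (3682, 3809 and 3133) and pericytes (2458, 3975 and 2556), and in CIA the last 2 were above fibroblasts. Suprabasal keratinocytes (3979, 2144 and 1569) overlapped fibroblasts and lymphatic endothelial cells through Cont alone. Fos was lowest in T, NK and innate lymphoid cells (386, 462 and 493). Fosb, a Fos relative that also has a truncated isoform, was highest in fibroblasts (2249, 1521 and 1254 CPM) and dermal papilla cells (1766, 1471 and 1713), and the next class, pericytes and vascular smooth muscle, lay below dermal papilla in every library. Its lowest levels were in the inner root sheath, where the values were 137, 153 and 167 CPM. Dendritic and Langerhans cells (157 to 202) and hair matrix and shaft cells (166 to 197) overlapped these. The 2 Fos genes thus shared fibroblasts as a high class. By mean over libraries, the inner root sheath was also next to lowest for Fos (519 to 765 CPM).

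Jun and its relatives differed from each other. Jun had its highest median in basal and outer root sheath keratinocytes (2337, 2382 and 2141 CPM), overlapping fibroblasts (2512, 1938 and 1880), which were above them in Cont, and was lowest in T, NK and innate lymphoid cells (155, 163 and 169 CPM), with no overlap between these lymphoid cells and any other class. Junb had the opposite place for the lymphoid class: its highest level was there, at 1627, 2288 and 1842 CPM, overlapping lymphatic endothelial cells at 1814, 1473 and 1444 and fibroblasts at 1334, 1824 and 1400. Melanocytes had the lowest median of Junb, with 275, 486 and 436 CPM, and overlapped the inner root sheath. Jund, the Jun gene with the most constant expression, ranged least across classes, from 590.5 to 710 CPM in upper follicle keratinocytes, which suprabasal keratinocytes overlapped (911, 560.2 and 575), to between 1777 and 2494 CPM in fibroblasts.

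The 2 EGR genes marked epithelium and stroma differently. Egr1 was highest in fibroblasts (2456, 1568 and 1688 CPM), and suprabasal keratinocytes overlapped them through the Cont library alone (2527, 821 and 853). Egr1 was lowest in dendritic and Langerhans cells (49.3, 28.8 and 38.1 CPM), overlapping T, NK and innate lymphoid cells (61.6, 44.4 and 60.5). Egr2, also called Krox20 and known from hair follicle epithelium, was highest in upper follicle keratinocytes (244, 125 and 171 CPM), then suprabasal keratinocytes (166, 78.8 and 73.3) and basal and outer root sheath keratinocytes (61.6, 54.8 and 50.9). The other 11 compared classes lay below these in every library, and macrophages and monocytes had 24.8, 11.0 and 11.4 CPM.

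Ier2 and Atf3 had their highest medians in keratinocyte classes and Nr4a1 in dermal papilla. Ier2 was highest in suprabasal keratinocytes (668, 290 and 320 CPM), overlapping hair matrix and shaft cells (256, 403 and 289) and basal and outer root sheath keratinocytes (270, 330 and 271), and lowest in melanocytes (27.4, 38.7 and 41.5). Atf3 was highest in basal and outer root sheath keratinocytes (2463, 2069 and 1938 CPM), overlapping lymphatic endothelial cells (1749, 1762 and 2457). Suprabasal keratinocytes overlapped both of these through Cont alone, at 2366 CPM. Dermal papilla cells, the mesenchymal cells that instruct the follicle, had the lowest Atf3 of any class (77.4, 85.9 and 89.8 CPM), below lymphoid cells at 179, 207 and 196. They had the highest Nr4a1, at 729, 895 and 752 CPM, against 411, 483 and 378 in pericytes and vascular smooth muscle, with no overlap. Melanocytes had the lowest median of Nr4a1, with 56.0, 79.8 and 50.6 CPM, overlapping hair matrix and shaft cells and macrophages.

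Free RNA gives every class some UMIs of each gene. In T, NK and innate lymphoid cells the keratin genes Krt14 and Krt5, which these cells do not make, were at 4.34% to 6.72% of their level over all kept cells, and the fibroblast genes Col1a1, Col3a1 and Dcn at 1.18% to 2.49%. Egr1 in the same cells was at 5.42% to 7.04% of its library level, close to the range of the keratins. Fos at 17.6% to 24.7%, Atf3 at 16.7% to 23.0% and Jun at 12.4% to 13.0% were above that range.

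The spread over cells was wide in every class, as the plot of the member sum per cell shows. After each cell was thinned to 2000 UMIs, the median fibroblast of Cont held 28 UMIs of the 10 genes, with the 10th percentile at 5 and the 90th at 82. Basal and outer root sheath keratinocytes of Cont had a lower median, 13, over a similar span, 1 to 81. Dendritic and Langerhans cells had medians of 5, 5 and 6 UMIs and 90th percentiles of 14.5 to 17. Among all kept cells, 73.0%, 79.4% and 79.0% of thinned cells in Cont, CIA and CIA+VFX had UMIs of at least 3 of the 10 genes, leaving out 1390, 2186 and 2696 shallower cells. Without thinning the shares were 88.3%, 87.5% and 88.3%. By class and thinned, the share was 91.6%, 90.5% and 85.1% in fibroblasts, 50.4%, 71.2% and 71.3% in melanocytes, and 53.5%, 54.1% and 62.5% in dendritic and Langerhans cells.

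**Figure D2:**
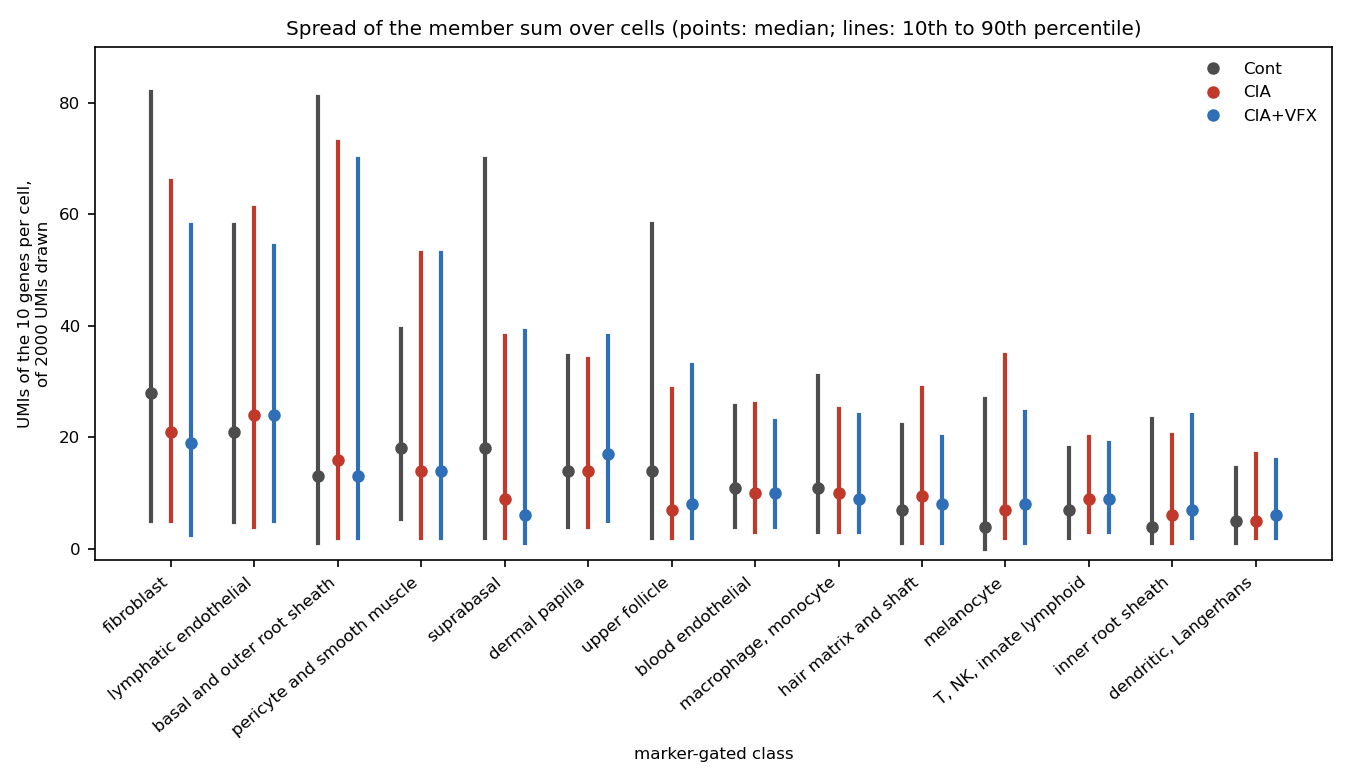
Plot of the UMIs of the 10 genes per cell, of 2000 UMIs drawn (vertical axis), by class (horizontal axis) and library (colour); points are medians over cells and lines run from the 10th to the 90th percentile. Fibroblasts of Cont have a median of 28 with a line from 5 to 82, while dendritic and Langerhans cells have medians of 5 to 6.

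Within a class and library, cells with more of one member tended to have more of several others. Over cells thinned to 2000 UMIs, the median Pearson r over the 38 classes and libraries with enough of both genes was 0.57 for Fos with Egr1, and over 42 it was 0.53 for Fos with Jun, 0.49 for Fos with Atf3 and 0.47 for Jun with Atf3. Egr2 was least tied to the rest, with medians between 0.02 and 0.11. Nr4a1 had medians between 0.13 and 0.22 against all but Egr2. Some pairs of the other genes were as low, such as Jund with Ier2 (0.10) and Fosb with Ier2 (0.14). The sum of the 10 genes per cell had a median r of 0.47 with the heat shock UMIs of the same cell (range 0.20 to 0.65). It had a median r of -0.18 with the mitochondrial share and of 0.09 with the log of the cell's UMIs before thinning. These values describe cells of a shared library and carry no test.

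Across the 42 sums of a class in a library the pairing changed. On log2 CPM, r was 0.87 for Fos with Fosb, 0.82 for Fos with Egr1, 0.77 for Fos with Jun and 0.72 for Jun with Atf3. Junb went with Jund (r = 0.63) but not with Jun (r = -0.15). Negative values were -0.34 for Jund with Egr2, -0.33 for Jund with Ier2 and -0.26 for Atf3 with Nr4a1. The 42 points share 3 libraries and are not independent.

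**Figure D3:**
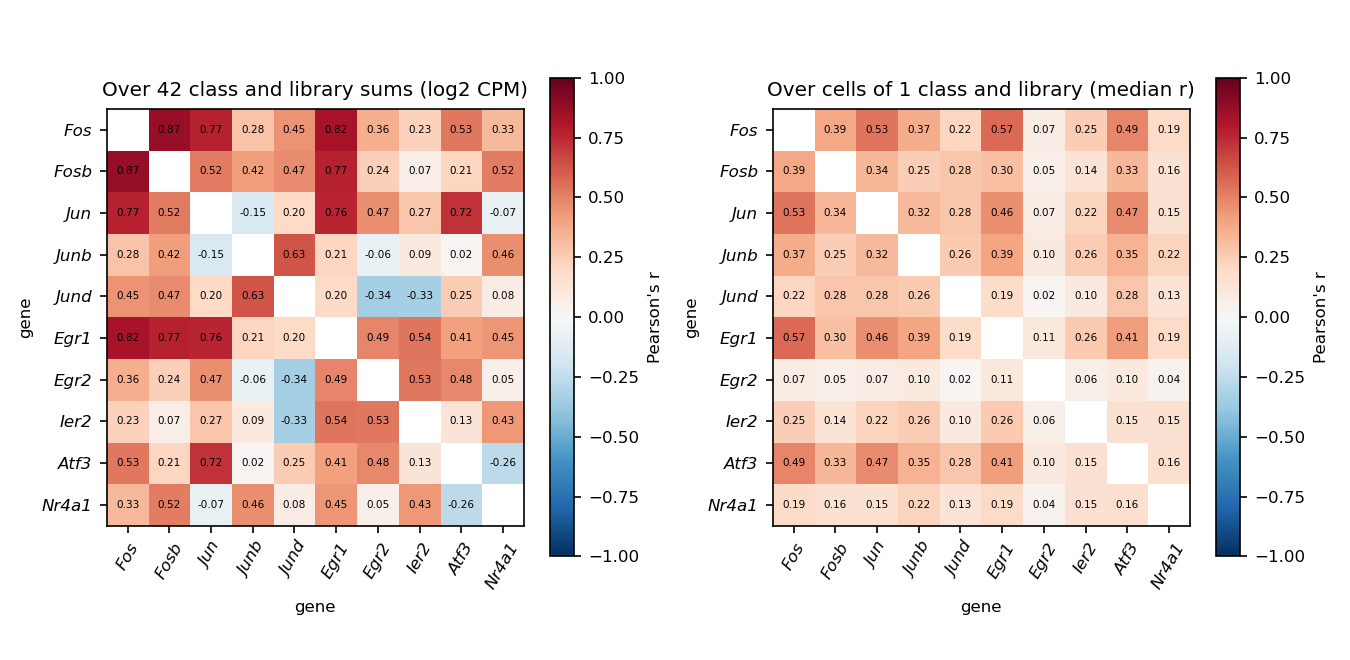
Maps of Pearson's r between members (rows and columns), on the left over 42 class and library sums of log2 CPM and on the right as the median over cells within a class and library; colour runs from -1 to 1. Fos and Egr1 are tied in both maps (0.82 and 0.57), while Junb and Jund stand out on the left only (0.63 against 0.26).

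The first comparison, CIA against Cont, sets mice of the alopecia model beside mice given vehicle. With 1 library each, the model cannot be told apart from the library. Over all kept cells no member differed by 1.5-fold, and the median log2 ratio of the 10 was 0.03 (range -0.40 for Egr2 to 0.45 for Nr4a1), beside 0.05 over 19306 measured genes. In the background 13.0% of genes were at least 1.5-fold higher and 7.12% at least 1.5-fold lower. By class, Egr2 had the 50 UMIs required in 8 classes, Ier2 in 13 and the other 8 genes in all 14, which gave 133 class and gene pairs. Of these 13 (9.77%) were at least 1.5-fold higher in CIA and 23 (17.3%) at least 1.5-fold lower, beside 11.5% and 8.76% of all pairs of a class and a gene. Taken over the 14 classes together, the share of lower pairs was thus above the background and the share of higher pairs near it. TMM scaling gave 8 higher and 23 lower pairs, and median-of-ratios scaling 8 and 25. Of the 23 lower pairs, 9 were in suprabasal and 6 in upper follicle keratinocytes, where 24.3% and 18.7% of all genes were also lower. The excess over the background thus came mainly from these classes, and no other class had more than 3 lower members.

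**Figure D4:**
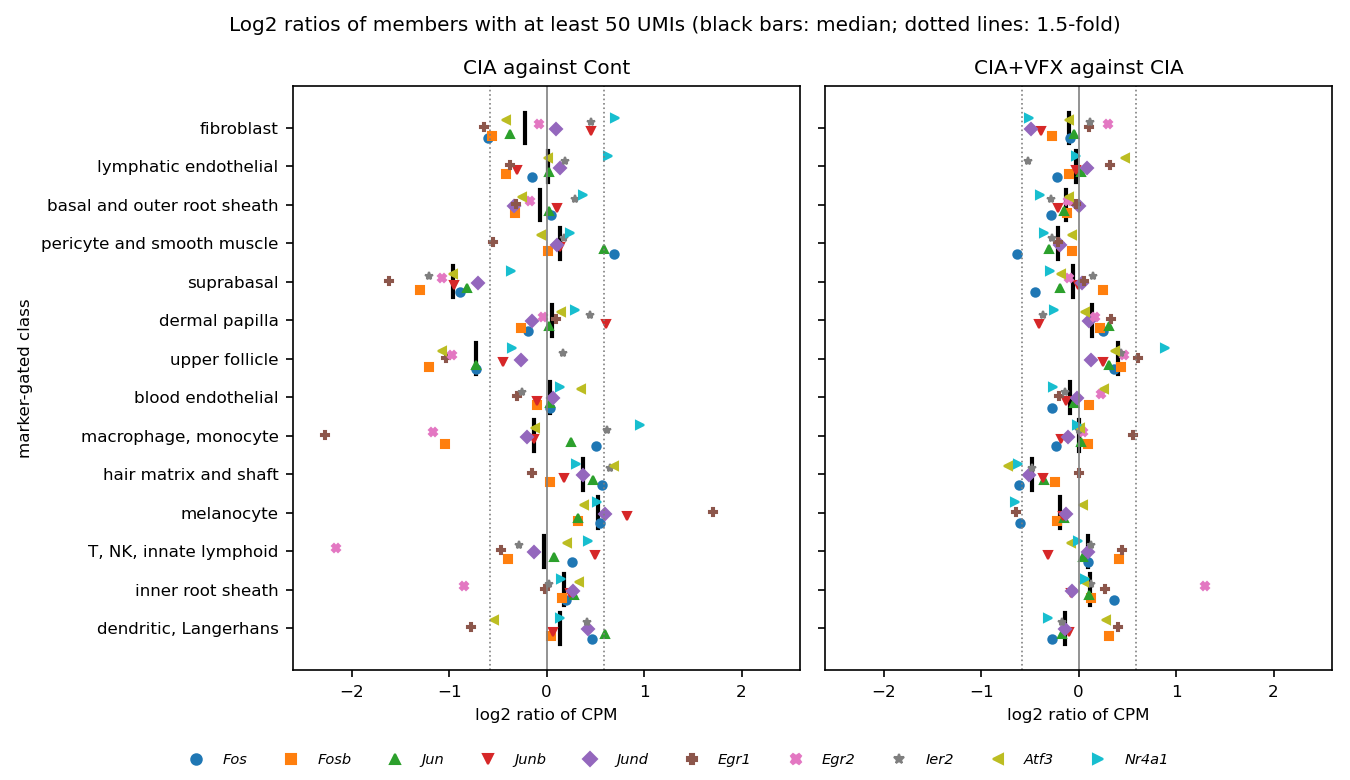
Log2 ratios of CPM (horizontal axis) of each member (symbol) in each class (rows), for CIA against Cont and CIA+VFX against CIA; black bars are medians and dotted lines mark 1.5-fold. In the left panel the medians of suprabasal (-0.96) and upper follicle keratinocytes (-0.72) lie past the lower line, and Egr1 of macrophages and monocytes lies at -2.28.

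Suprabasal keratinocytes, the differentiating layers above the basal layer, had less of the immediate early genes in CIA than in Cont. The class had 75, 132 and 187 cells in Cont, CIA and CIA+VFX, and its member sum was 15098, 7492 and 6734 CPM. Egr1 had 2527, 821 and 853 CPM, a log2 ratio of -1.62 (-1.71 to -1.53) for CIA against Cont. Fosb had 1046, 423 and 504 CPM, a log2 ratio of -1.30 (-1.43 to -1.18). In both genes Cont was high and the other libraries were close to each other. Ier2 (668, 290 and 320 CPM; log2 ratio -1.21) and Egr2 (166, 78.8 and 73.3; -1.08) were lower as well. Fos, at 3979, 2144 and 1569 CPM, differed by -0.89 (-0.95 to -0.83), and it was lower again in CIA+VFX. Jun, Junb, Jund and Atf3 had log2 ratios of -0.81, -0.96, -0.70 and -0.96. Nr4a1, at 309, 240.5 and 196 CPM, was the member that stayed within 1.5-fold, with -0.36. So 9 of 10 members were at least 1.5-fold lower, beside 24.3% of the 6601 genes measured in this class, and the median of the 10 was -0.96 beside -0.18 over those genes. TMM scaling, which moved all ratios of this class up by 0.19, left 8 of 10 lower, and cells thinned to 2000 UMIs left 6 of 9.

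Heat shock genes and the class's own markers also differed between the libraries. The heat shock genes summed to 12338, 9025 and 8216 CPM, with 5 of 12 at least 1.5-fold lower in CIA and 1 higher (9.91% of genes were higher). Of other immediate early genes 10 of 22 were lower and 2 higher, and of feedback inhibitors of MAP kinase and inflammatory signalling 8 of 12 were lower and none higher. Among the markers of the gate, Krt1 had 1624, 9639 and 7268 CPM and Krt10 7206, 14672 and 12996, while the late differentiation genes Lor (140, 3 and 25 CPM) and Flg2 (80, 0 and 1) were highest in Cont. The marker makeup of the gated cells thus differed between Cont and the other libraries, and its part in the member levels was not tested. When cells were classed by cluster instead, 329 of these 394 cells (83.5%) fell in basal and outer root sheath clusters, so the class has no value under that setting.

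The distribution over suprabasal cells differed at its middle and top. After thinning, the 90th percentile of the member sum was 70 UMIs in Cont against 38.2 in CIA and 39 in CIA+VFX, the median was 18, 9 and 6, and the 10th percentile was 2, 2 and 1. The share of thinned cells with UMIs of at least 3 members was 81.2%, 80.7% and 71.0%.

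Upper follicle keratinocytes, which line the infundibulum and junctional zone, showed the same direction in CIA. They had 84, 113 and 164 cells, and a member sum of 9041, 5410 and 6923 CPM. Fosb (717, 310 and 418 CPM) had a log2 ratio of -1.21 (-1.36 to -1.07) for CIA against Cont. Atf3 (1591, 757 and 980) had -1.07 and Egr1 (855, 419 and 640) had -1.03. Egr2, for which this is the highest class, had 244, 125 and 171 CPM, a log2 ratio of -0.97 (-1.21 to -0.73). Fos (1770, 1068 and 1377 CPM) and Jun (1921, 1165 and 1443) were lower by smaller margins, -0.73 and -0.72. Each of these 6 genes had its middle value in CIA+VFX. Junb, Jund, Ier2 and Nr4a1 stayed within 1.5-fold. The 6 of 10 stand beside 18.7% of the 6847 genes measured in this class, and the median was -0.72 beside -0.10. With no removal of doublets 4 of 10 were lower. The heat shock genes summed to 11460, 9032 and 9758 CPM, 5 of 12 lower and 1 higher in CIA. Krt79, a marker of the gate, had 2748, 5588 and 4818 CPM, and 344 of the 361 cells (95.3%) fell in basal and outer root sheath clusters.

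Basal and outer root sheath keratinocytes, the largest class with 2358, 2635 and 3775 cells, had levels closer together. Their member sum was 14002, 13156 and 11763 CPM, and the median log2 ratio for CIA against Cont was -0.07. No member differed by 1.5-fold in any comparison. Of all genes 11.3% were higher and 4.5% lower for CIA against Cont. The shares were 2.34% and 4.80% for CIA+VFX against CIA, and 8.06% and 4.13% for CIA+VFX against Cont. Fos had 3682, 3809 and 3133 CPM, Egr1 1597, 1281 and 1258, and Atf3 2463, 2069 and 1938. The heat shock genes of the class summed to 12140, 12544 and 12099 CPM. Whether the suprabasal and basal ratios differ was not tested.

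**Figure D5:**
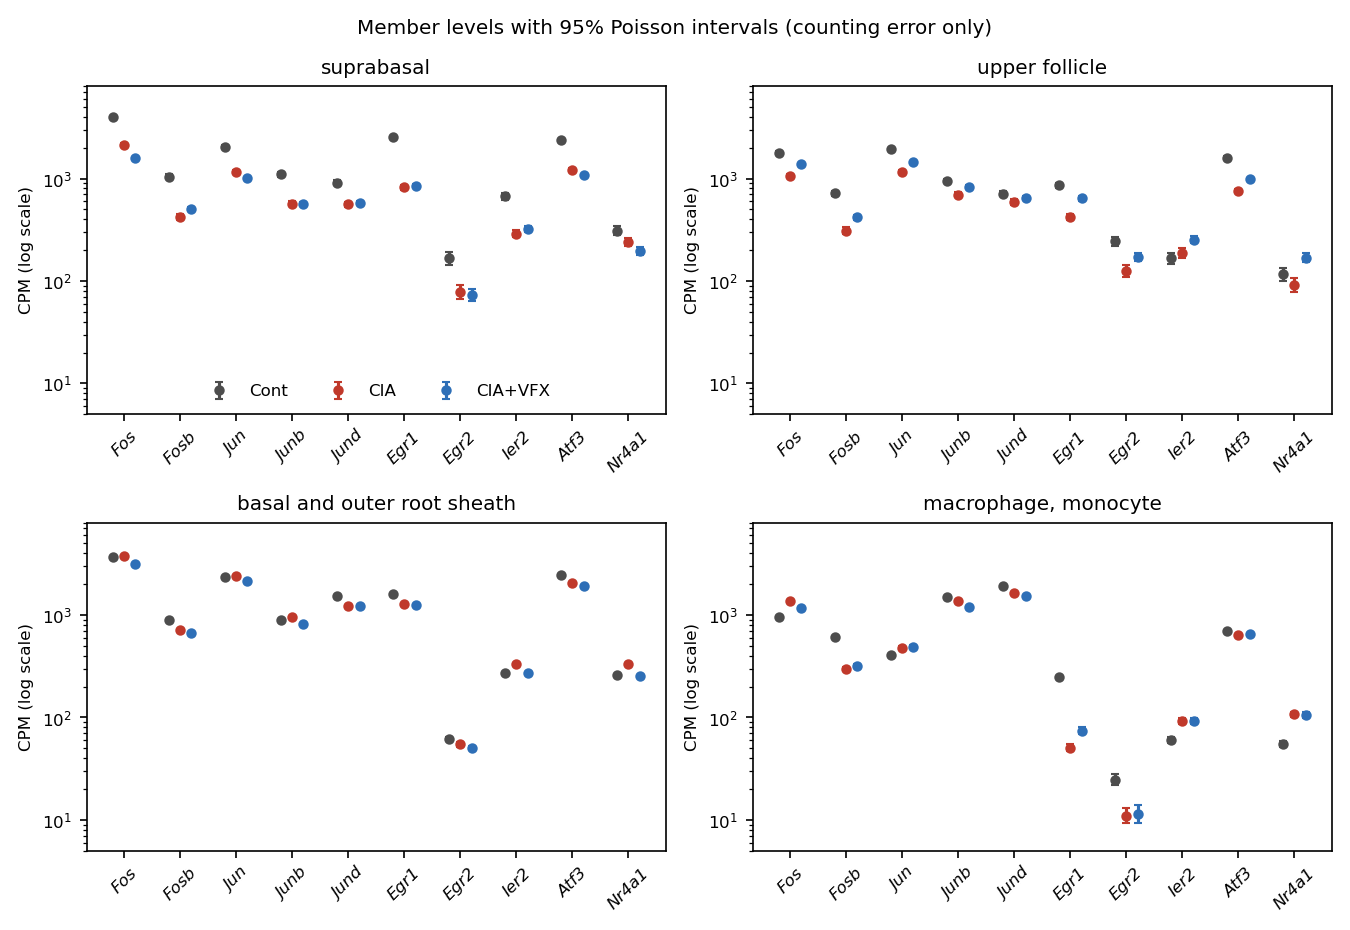
Levels of the 10 genes in CPM (log scale) with 95% Poisson intervals in suprabasal, upper follicle, and basal and outer root sheath keratinocytes and in macrophages and monocytes; colours are the 3 libraries. In suprabasal cells the Cont points lie highest for each gene (Egr1 2527 against 821 and 853), in the basal panel the points lie close together, and in macrophages Egr1 is 246 in Cont and 50.8 in CIA.

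Macrophages and monocytes had members past 1.5-fold in both directions. Egr1, linked to monocyte differentiation, had 246, 50.8 and 74.5 CPM in Cont, CIA and CIA+VFX, a log2 ratio of -2.28 (-2.40 to -2.15) for CIA against Cont. Its 50.8 CPM in CIA was near the 44.4 CPM of lymphoid cells in that library, where Egr1 was close to the free RNA range. Fosb had 616, 299 and 319 CPM (-1.04) and Egr2 24.8, 11.0 and 11.4 (-1.17), each with Cont alone high. Nr4a1, which monocytes low in Ly6c need for their development, had 55.1, 107 and 106 CPM, a log2 ratio of 0.96 (0.82 to 1.09), and Ier2 had 60.2, 92.5 and 92.7 (0.62), each with Cont alone low. So 2 of 10 were at least 1.5-fold higher, beside 17.0% of genes, and 3 lower, beside 9.41%. TMM scaling, which moved this class down by 0.14, left Nr4a1 as the 1 higher gene. The makeup of the class differed as well. Ly6c2, a marker of recruited monocytes, had 37, 601 and 375 CPM, and cells with C1q and without Ly6c2 were 71.0%, 49.8% and 54.6% of the class. Those 1291, 1156 and 837 cells were also taken alone, a split added after seeing the data. The share of all genes past 1.5-fold was not computed for them. Egr1 had 321, 65.9 and 94.6 CPM there, Fosb 791, 425 and 442, and Nr4a1 55.2, 87.5 and 77.3, and these 3 stayed past 1.5-fold. Ier2, at 60.2, 65.9 and 82.1 CPM, and Egr2, at 20.1, 14.7 and 11.0, were within 1.5-fold in these cells, so the calls of both were lost without the other cells of the class. The heat shock genes of the class went the other way, with a sum of 4473, 7405 and 6722 CPM and 10 of 12 higher in CIA. Haemoglobin genes were also higher there, at 4.99, 77.6 and 11.6 CPM in sum.

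Among stromal classes, fibroblasts had Fos and Egr1 at least 1.5-fold lower in CIA than in Cont and Nr4a1 higher. Fibroblasts had 1257, 2312 and 1408 cells. Their Fos (5524, 3646 and 3437 CPM) differed by -0.60 in CIA against Cont and their Egr1 (2456, 1568 and 1688) by -0.65, while Nr4a1 (232, 377 and 265) differed by 0.70 and was high in CIA alone. Junb (1334, 1824 and 1400 CPM) was highest in CIA and within 1.5-fold. Fosb (2249, 1521 and 1254 CPM) was within 1.5-fold in CIA and past it in CIA+VFX against Cont, at -0.84. The fibroblast counts were 1 higher and 2 lower of 10 for CIA against Cont, beside 7.74% and 8.02% of genes, and 2 lower for CIA+VFX against Cont, beside 6.38%. TMM and median-of-ratios scaling made that last count 4. Fibroblast heat shock genes summed to 10336, 11903 and 10711 CPM. Among the markers of the gate, Col1a1 had 10768, 3768 and 5281 CPM and Col3a1 7910, 3633 and 5486, highest in Cont. Mfap5 had 442, 694 and 633 CPM, lowest in Cont, and the part of these differences in the member values was not tested.

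Pericytes and vascular smooth muscle had more Fos in CIA, at 2458, 3975 and 2556 CPM, a log2 ratio of 0.69 (0.61 to 0.78). Jun, at 823, 1239 and 1003 CPM, was higher by 0.59. CIA alone was high for both. These 2 of 9 measured members stand beside 14.7% of genes higher, Cont had only 58 such cells, and with cells thinned to 2000 UMIs none of 9 was past 1.5-fold higher. Their heat shock genes were also highest in CIA, at 6907, 10139 and 7986 CPM. Among the markers of the gate, Rgs5 of pericytes had 2129, 3825 and 3945 CPM and Myh11 of smooth muscle 8018, 5025 and 5329, and the part of this in Fos and Jun was not tested.

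Dermal papilla cells had 1 of 10 members past 1.5-fold, Junb, with 790, 1201 and 906 CPM (0.60), beside 9.55% of genes higher. Their heat shock genes summed to 6629, 9214 and 9306 CPM. Lymphatic endothelial cells had 1 of 9, Nr4a1, with 107, 165 and 162 CPM (0.63), beside 6.84%, and heat shock sums of 9552, 12634 and 12277 CPM. Blood endothelial cells had none of 9 past 1.5-fold in CIA against Cont, beside 13.9% of genes higher and 5.09% lower. In CIA+VFX against Cont their Atf3, with 329, 420 and 501 CPM, was higher by 0.61, beside 15.2%. Their Egr2, on only 19 UMIs in Cont and 45 in CIA+VFX, was lower in CIA+VFX (-0.77), beside 5.04%. Their heat shock sums were 8155, 8677 and 7683 CPM.

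In melanocytes 3 of 8 measured members and in hair matrix and shaft cells 2 of 9 were at least 1.5-fold higher in CIA than in Cont. The 154, 99 and 167 melanocytes had 1041, 1524 and 1002 CPM of Fos, a log2 ratio of 0.55. Junb, at 275, 486 and 436 CPM, differed by 0.82 (0.54 to 1.10) and Jund, at 884, 1340 and 1228, by 0.60. Egr1 differed by 1.71 (1.05 to 2.39), from 37.7 to 123 CPM, with 79.2 in CIA+VFX, on 33, 51 and 61 UMIs. Lymphoid cells, where Egr1 was close to the free RNA range, had 44.4 to 61.6 CPM of it. The 3 higher members stand beside 14.0% of genes, and the median of 0.53 was 0.18 when cells were thinned to 2000 UMIs. Melanocyte heat shock genes summed to 2606, 4613 and 3843 CPM, with 7 of 11 higher in CIA. Among their own markers the pigment enzyme gene Tyr had 3283, 965 and 2055 CPM and Tyrp1 4117, 2448 and 3309, and the part of this in the member values was not tested.

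Hair matrix and shaft cells, the dividing cells that build the fibre and their progeny, had 117, 79 and 150 cells. Atf3, at 387, 626 and 379 CPM, had a log2 ratio of 0.69 for CIA against Cont and Ier2, at 256, 403 and 289, one of 0.65, and CIA alone was high in both. These 2 of 9 stand beside 6.82% of genes. Their heat shock sums, 10031, 10666 and 10907 CPM, differed little. In the inner root sheath 9 of 10 members were within 1.5-fold, and Egr2, on 15 UMIs in CIA, had 7.06, 3.93 and 9.69 CPM, beside 6.37% of genes lower, and its direction reversed when cells were classed by cluster. Heat shock sums were 8701, 10348 and 9811 CPM.

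In dendritic and Langerhans cells Jun, with 188, 285 and 253 CPM, had a log2 ratio of 0.60 in CIA, and Egr1, with 49.3, 28.8 and 38.1 CPM, one of -0.77 on 79 UMIs in CIA. These 1 higher and 1 lower of 9 stand beside 18.1% and 10.7% of genes, and heat shock sums were 4595, 8295 and 6930 CPM. Lymphoid cells, where Egr1 was close to the free RNA range, had more of it in every library (61.6, 44.4 and 60.5 CPM). In T, NK and innate lymphoid cells Egr2 was lower, on 45, 8 and 22 UMIs, beside 7.21% of genes. The other 9 genes were within 1.5-fold, with Junb at 1627, 2288 and 1842 CPM (0.49) and Nr4a1, which T cell receptor signalling induces, at 317, 426 and 424 CPM (0.43). Heat shock genes summed to 4746, 6255 and 6109 CPM and haemoglobin genes to 3.83, 312 and 4.10 CPM in these lymphoid cells, and their part in the values was not tested.

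The second comparison, CIA+VFX against CIA, sets model mice given venlafaxine beside model mice. With 1 library each, the treatment cannot be told apart from the library. Over all kept cells no member differed by 1.5-fold and the median of the 10 was -0.09, beside 0.02 over all genes, where 4.59% were higher and 7.52% lower. Junb (-0.41) and Nr4a1 (-0.40) had the lowest ratios and Egr2 (0.27) the highest. By class, 3 of 133 pairs (2.26%) were at least 1.5-fold higher and 7 (5.26%) lower, beside 5.07% and 4.21% of all pairs, so both shares were near or under the background. Against Cont, CIA+VFX had 8 of 135 pairs higher (5.93%) and 19 lower (14.1%), beside 10.3% and 6.83%. Of these 19 lower pairs, 10 were in suprabasal keratinocytes. Over all kept cells CIA+VFX had no member past 1.5-fold against Cont, beside 9.23% and 6.17%.

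In suprabasal keratinocytes none of the 10 members was past 1.5-fold between CIA+VFX and CIA, beside 6.57% of genes higher and 7.31% lower, and the median was -0.06. Fos had the lowest ratio, -0.45 (-0.51 to -0.39). Against Cont all 10 members were at least 1.5-fold lower in CIA+VFX, with a median of -1.06, beside 21.6% of genes. The sign of Nr4a1 depended on how cells were weighted: its ratio of -0.66 became 0.34 as a mean over cells and 0.24 with cells thinned to 2000 UMIs.

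Upper follicle keratinocytes had all 10 members higher in CIA+VFX than in CIA, and 2 of them by 1.5-fold. Nr4a1, at 117, 91.4 and 169 CPM, had a log2 ratio of 0.89 (0.63 to 1.16), and Egr1, at 855, 419 and 640, one of 0.61 (0.49 to 0.74). The 2 stand beside 6.72% of genes, and the median of 0.40 stands beside -0.01 over all genes. The median was 0.16 with no removal of doublets, and 0.16 as a mean over cells, where none was past 1.5-fold. The CIA+VFX cells of this class also held 270 CPM of haemoglobin, against 8.48 in Cont and 2.67 in CIA.

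Hair matrix and melanocyte values went the other way. In hair matrix and shaft cells Fos (950, 1407 and 920 CPM), Atf3 (387, 626 and 379) and Nr4a1 (80.1, 98.5 and 64.0) were at least 1.5-fold lower in CIA+VFX than in CIA, with log2 ratios of -0.61, -0.72 and -0.62, and Fos and Atf3 of CIA+VFX were near their Cont levels. These 3 of 9 stand beside 5.95% of genes. In melanocytes Fos, Egr1 and Nr4a1 were lower, at -0.60, -0.64 and -0.66, the last on 33 and 39 UMIs with an interval of -1.36 to 0.06. These 3 of 8 stand beside 6.13%. In pericytes and vascular smooth muscle Fos had a log2 ratio of -0.64, the 1 member of 9 past 1.5-fold, beside 4.09% of genes.

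Gene by gene, the classes above 0 can be counted for both comparisons. Both use the CIA library, so their values are set side by side as a description. Nr4a1 was above 0 in 12 of 14 classes for CIA against Cont (median 0.30) and in 2 of 14 for CIA+VFX against CIA (median -0.28). Junb was above 0 in 9 of 14 and then in 1 of 14. Egr1 was above 0 in 2 of 14 classes (median -0.42) and then in 10 of 14 (median 0.19). Egr2 was above 0 in 0 of 8 measured classes and then in 6 of 8. With cells thinned to 2000 UMIs Egr2 was measured in 4 classes and was above 0 in none of them for CIA+VFX against CIA either. Under TMM scaling the counts for CIA against Cont were 12 for Nr4a1 and 3 for Egr1. Fosb, above 0 in 5 of 14 classes for CIA against Cont, was so in 2 under TMM scaling.

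Lists of related genes place the members in their pathways, and the counts that follow are over all kept cells. For CIA against Cont none of 12 other AP-1 family genes and partners was past 1.5-fold, nor was any of 12 MAP kinases. Of 6 other EGR and NR4A genes and corepressors, 1 was lower: Egr3, with 115, 63.1 and 111 CPM, had a log2 ratio of -0.86 and, for CIA+VFX against CIA, of 0.82. These counts are read beside the 13.0% of all genes that were higher and the 7.12% that were lower. Of 23 other immediate early genes 4 were higher and none lower, the largest being Npas4, a neuronal gene at 0.196 CPM in Cont and 0.557 in CIA (1.51), and Ccn2, a target of YAP and of TGF-beta with 31.2, 80.8 and 50.8 CPM (1.37). Of 17 feedback inhibitors 1 was higher, Socs3, which restrains cytokine signalling, with 237 and 384 CPM in Cont and CIA (0.70). Of 9 upstream factors 1 was higher, Elk3, a ternary complex partner, with 26.3 and 45.7 CPM (0.80). Of 12 heat shock genes 2 were higher, Hsph1 (0.67) and Hspa1a (0.62). All 4 haemoglobin genes were higher, with log2 ratios of 1.54 for Hbb-bs and Hbb-bt.

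For CIA+VFX against CIA, where 4.59% of all genes were higher and 7.52% lower, 2 of the 12 other AP-1 genes were lower, Jdp2, a repressor of AP-1 (-0.71), and Batf, an AP-1 factor of lymphoid cells (-0.68). Of the 23 other immediate early genes 4 were lower, led by Npas4 (-0.69) and Ccn1 (-0.68), a matricellular gene with 258, 436 and 272 CPM. No feedback inhibitor, upstream factor, MAP kinase or heat shock gene was past 1.5-fold. Of the 4 haemoglobin genes 3 were lower, among them Hbb-bt (-1.20) and Hbb-bs (-0.89). For CIA+VFX against Cont, with 9.23% higher and 6.17% lower in the background, Nr4a3 was lower (-0.76), and Npas4 (0.82), Ccn2 (0.70) and Elk3 (0.82) were higher.

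Other genes were ranked by how closely their level over the 42 class and library sums followed the mean profile of the 10 members. Among 16924 genes the 10 most alike were Nfix (r = 0.86), Arhgap44, Arvcf, Hoxa3, Ccnl1, Dnajb1, Fst, Itpkc, Serpina3h and Smtn (r = 0.80). Dnajb1, a heat shock cochaperone, was the one gene of the related lists among them (r = 0.81). Maff (r = 0.72), a small Maf factor, Hspb1 (r = 0.71) and Ccn1 (r = 0.68) were the next of those lists. The sums share 3 libraries and cell classes, and the values are descriptions.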

How the data were processed

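Single cells from 3 pooled skin samples were captured with Chromium GEM-X 3′ v4, per the labels' protocols. The authors deposited raw UMI count matrices, 1 per group, made with Cell Ranger 8.0.1 and FastQC 0.11.7 against GRCm39, per the submitters' processing notes. The counts were used as deposited. Barcodes under 500 genes or above 15% mitochondrial UMIs were dropped, and doublets were removed by score at 0.4% per 1000 barcodes, which took out 734, 1172 and 1263 barcodes. Cells were gated by marker score (at least 0.15, ahead of the next class by 0.05, with at least 2 markers). UMIs were summed per class and library. A gene counted as measured with at least 50 UMIs over both libraries and as higher or lower at 1.5-fold. Ratio intervals are exact conditional binomial, level intervals exact Poisson, and both cover counting error only. With 1 library per group no test was possible. The ratio calculation was tested on simulated data.

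All 10 members are named, then by rule at most 2 genes in each direction of each related list and the 10 most alike. The members and lists were chosen with earlier results of these data known. Alternatives were other cell filters, no doublet removal, Leiden clusters in place of gates, a stricter gate, TMM scaling (edgeR 4.0.16, R 4.3.3), median-of-ratios scaling, means over cells, thinning to 2000 UMIs, subtraction of 5% free RNA, other UMI minimums and a 2-fold threshold. The calculations used Python 3.11.15, numpy 2.4.6, pandas 2.3.3, scipy 1.17.1 and scanpy 1.11.5. Promoters were read from RefSeq windows of GRCm38.p6, and no coordinates were converted.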

Additional observations from a re-analysis of the deposited data

Results flagged for a closer look

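In some classes the measured members lay on one side of 0 and in others on the opposite side, leaving aside the highest and the lowest where 9 or 10 were measured. These differences between classes were not tested. For CIA against Cont the median log2 ratio of the members was 0.53 in melanocytes and 0.37 in hair matrix and shaft cells, against -0.725 in upper follicle and -0.96 in suprabasal keratinocytes. For CIA+VFX against CIA it was 0.40 in upper follicle keratinocytes, against -0.21 in pericytes and vascular smooth muscle, -0.48 in hair matrix and shaft cells and -0.13 in basal and outer root sheath keratinocytes. For CIA+VFX against Cont it was 0.27 in the inner root sheath, against -0.25 in basal and outer root sheath and -1.06 in suprabasal keratinocytes.

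Cells that no comparison by class used also held the transcripts. The 2447, 2853 and 2957 kept cells outside the gates had a member sum of 4288 CPM in Cont, 5417 in CIA and 5101 in CIA+VFX. The 153, 553 and 610 cells of classes with under 50 cells in a library had 4746, 5507 and 4127 CPM.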

How the results depend on the processing

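No paired analysis was possible because each group is 1 library, and for the same reason no replicate could be left out. Removing the mitochondrial limit, requiring 1000 genes with at most 8% mitochondrial UMIs, subtracting 5% free RNA and changing the UMI minimum to 10 or 200 each left all 45 class medians within the spread of the members. The medians that moved were 1 of 45 without doublet removal, with the stricter gate and with TMM, 2 with median-of-ratios, 5 as means over cells, 7 when thinned and 4 of 39 by cluster. Single-gene ratios moved out of their counting intervals more often. They were counted where past 1.5-fold in a class, and at any size over all kept cells. Of 103, 26 moved without doublet removal, 54 with TMM, 51 with median-of-ratios and 66 as means over cells, where 1 more reversed. When thinned, 60 of 91 moved and 3 more reversed. Suprabasal and upper follicle keratinocytes have no value by cluster. The added split of macrophages moved 0 of 3 medians and 7 of 10 member ratios.

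For CIA against Cont, the mean over cells gave a median of -0.057 in pericytes (from 0.14). Thinning gave 0.22 in lymphatic endothelial cells (from 0.01), 0.18 in melanocytes (from 0.53) and -0.058 in the inner root sheath (from 0.18), where clusters gave 0.58. Egr2 of the inner root sheath reversed by cluster, from -0.84 to 1.34. The 13 higher pairs became 8 with TMM, 8 with median-of-ratios, 6 thinned and 1 at 2-fold, and the 23 lower pairs 11 by cluster and 11 at 2-fold.

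For CIA+VFX against CIA, the pericyte median of -0.21 became 0.018 as a mean over cells and -0.0083 thinned, that of lymphatic endothelial cells -0.27 thinned (from -0.03), that of the inner root sheath -0.086 by cluster (from 0.11) and that of basal and outer root sheath keratinocytes -0.014 by cluster (from -0.13). The upper follicle median of 0.40 became 0.157 without doublet removal and 0.160 as a mean over cells. Egr2 of the inner root sheath reversed by cluster, from 1.30 to -0.33. The 3 higher pairs became 5 with free RNA subtracted, 5 with a minimum of 10 UMIs and 1 at 2-fold, and the 7 lower pairs 4 as means over cells, 4 thinned, 4 with a minimum of 200 UMIs and 0 at 2-fold.

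For CIA+VFX against Cont, median-of-ratios gave -0.16 over all kept cells (from -0.11). The pericyte median of -0.08 became -0.15 with TMM and -0.16 with median-of-ratios, the melanocyte median of 0.42 became -0.086 thinned, and the inner root sheath median of 0.27 became 0.49 by cluster and 0.14 both as a mean over cells and thinned. Hair matrix and shaft cells gave -0.23 with the stricter gate (from -0.13) and upper follicle keratinocytes -0.74 as a mean over cells (from -0.39). Single genes reversed when thinned: Nr4a1 in lymphatic endothelial cells to -0.13 (from 0.60), Ier2 in upper follicle keratinocytes to -0.058 (from 0.60) and Nr4a1 in suprabasal keratinocytes to 0.24 (from -0.66), where the mean over cells gave 0.34. The 8 higher pairs became 3 as means over cells, 3 thinned, 13 with free RNA subtracted and 1 at 2-fold, and the 19 lower pairs 9 by cluster and 9 at 2-fold. The cause of these changes was not tested, except that clusters leave out both keratinocyte classes.

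The share of thinned cells with at least 3 members, 73.0%, 79.4% and 79.0% in Cont, CIA and CIA+VFX, was 74.7%, 80.4% and 80.7% with the stricter cell filter, and 80.3% in CIA and 79.9% in CIA+VFX without doublet removal. Depth limits Egr2 most, which had the 50 UMIs in 8 of 14 classes.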

Other observations

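Classes with under 50 cells in a library entered no comparison. Mast cells and basophils (19, 139 and 145 cells in Cont, CIA and CIA+VFX) had 2195, 598 and 598 CPM of Egr1 and 308, 683 and 499.7 CPM of Nr4a1. Schwann cells (19, 85 and 42 cells) had 1538, 3842 and 4384 CPM of Fos. Neutrophils (23, 171 and 145 cells) had 1483, 1578 and 1630 CPM of Fos and 137, 453 and 462 CPM of Nr4a1. Sebocytes (44, 91 and 254 cells) had low Nr4a1, at 11.3, 19.3 and 25.1 CPM, and 946, 981 and 835 CPM of Jun.

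Barcodes above the mitochondrial limit, 648, 219 and 729 in the same order, held less of the members than kept barcodes. With mitochondrial UMIs left out of the totals, their member sum was 3826, 3215 and 3296 CPM, or 0.415, 0.347 and 0.383 of that of kept barcodes. Fos had the lowest of the 10 ratios in each library, at 0.287, 0.213 and 0.323, and Egr2 the highest, at 0.973, 0.890 and 0.752.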
